A study of Mus musculus with 6 samples.

Results

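The 10 genes described here are the core of the circadian clock and its best known outputs: Per1, Per2, Per3, Cry1, Cry2, Arntl, Clock, Dbp, Nr1d1 and Nr1d2. They were taken by gene symbol from a deposited expression table of 24493 genes, and all 10 were among the 11549 genes with enough signal to test. The libraries came from KPCY cells, tumour cells of the C57BL/6 strain from a mouse model of pancreatic cancer whose cells carry a yellow fluorescent label. Each group was transduced with a short hairpin RNA: a non-targeting control (shNT, 2 libraries), Pthlh hairpin 1 (2 libraries) or Pthlh hairpin 2 (2 libraries). Pthlh codes for the secreted ligand PTHrP (parathyroid hormone-related protein), and the study set Pthlh wild-type cells against Pthlh knockdown cells. The labels call the cells sorted from tumours in mice, while the protocols describe culture in DMEM, so the setting is not settled here. The design names 2 parental clones without saying which library came from which, and no label gives the hour of collection. Nothing says that replicates were separate cultures or animals, so every p-value below covers the spread among these libraries alone, and that spread may be technical.

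The clock is a feedback loop. The proteins CLOCK and BMAL1, the latter encoded by Arntl, bind E-box sequences together and switch on the Per, Cry, Nr1d and Dbp genes. PER and CRY proteins then return to the nucleus and repress CLOCK and BMAL1, which closes the loop about once a day. In a second loop the REV-ERB receptors, encoded by Nr1d1 and Nr1d2, repress Arntl and Nfil3 through RORE sequences, where ROR receptors activate. DBP and its relatives TEF and HLF activate genes through D-box sequences, and NFIL3 represses at the same sequences.

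Dbp stood out. It was at 2.33 TPM (a length-corrected transcript abundance) in shNT, 7.26 with hairpin 1 and 1.96 with hairpin 2, so hairpin 1 libraries held 3.12 times the shNT level. Per1 also rose with hairpin 1, 1.47-fold. Clock was lower with hairpin 2 than with hairpin 1, at 7.99 and 10.1 TPM. With hairpin 2 against shNT none of the 10 genes passed the threshold by limma. Outside these 10 genes, Nfil3 was at 14.5 TPM in shNT, 7.07 with hairpin 1 and 10.96 with hairpin 2.

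As a check of the hairpins, Pthlh was at 0.752 and 0.966 TPM in shNT, 0 and 0.106 with hairpin 1, and 0.0423 and 0.263 with hairpin 2. Its difference in both hairpins together was -0.76 ± 0.10 (SE) on the log2(TPM + 1) scale, limma adjusted p = 0.0120, in a fit without the expression filter, since it lay under that filter. That adjusted p was 0.0441 without hairpin 2 replicate 2 and 0.0513 to 0.0729, above the threshold of 0.05, when any of the other 5 libraries was left out. Among 10 epithelial tumour markers the summed level was 3873 to 4618 TPM; the keratins and Cdh1 carried it, while Epcam and Cldn4 were under 1 TPM in every library. Of 10 leukocyte markers 8 were under 1 TPM in every library, with a summed level of 2.12 and 3.32 in shNT, 1.74 and 2.77 with hairpin 1, and 3.58 and 4.59 with hairpin 2. All 8 fibroblast markers were under 1 TPM throughout. TPM keeps no record of read number, so the depth of the libraries is unknown. The small-RNA precursor entry Mir6236 took 19.7% to 34.1% of all TPM, most in the shNT libraries. Both hairpins together against shNT, the median gene lay at 0.10 (log2), and at 0.01 after median-ratio scaling. Over all genes 3149 were higher and 1401 lower by limma in that comparison, and 1742 and 2155 after median-ratio scaling; the 4550 in all became 2727 to 2850 when 1 hairpin library was left out. Differences of about that shift are read below against these values.

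To show where the clock's own binding sequences lie at the start sites of these genes, RefSeq promoter windows (GRCm38.p6, 250 bases before to 50 after each start) were searched on both strands. The motifs were the E-box CACGTG, its variant CACGTT, the D-box TTANGTAA, the RORE core TAGGTCA, the cAMP response element TGACGTCA and its half-site TGACG, which the full element contains. Of the 10 genes 9 had an entry, in 13 windows; Per2 had none. Stretches around the E-boxes of Cry1 and Per1 and around the D-boxes of Per3 are shown because they hold the sequences through which the loop and its DBP arm act. Ciart, a repressor outside the 10 genes, is added as a window with 3 E-boxes. Capitals mark the motif, and each is written 5′ to 3′ on the gene's strand.
Cry1 (chr10:85185097-85185126, minus strand): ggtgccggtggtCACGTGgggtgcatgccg
Per1 (chr11:69098771-69098800, plus strand): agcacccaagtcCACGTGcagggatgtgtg
Per3 (chr4:151044804-151044882, minus strand): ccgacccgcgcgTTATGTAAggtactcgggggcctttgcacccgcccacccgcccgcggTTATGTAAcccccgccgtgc
Ciart (chr3:95882255-95882356, minus strand): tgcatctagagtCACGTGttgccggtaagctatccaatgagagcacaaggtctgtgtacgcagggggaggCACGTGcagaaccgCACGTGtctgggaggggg

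The Cry1 E-box began at position -60 from its start and the Per1 E-box at -166 from one of its starts, inside the annotated span of Per1 and outside its exons. Both Per3 D-boxes have the same letters, at -205 and -158. Over all 32851 windows, 7.15% held the E-box and 2.32% the D-box, and of the 13 windows 2 held the E-box and 1 the D-box. The E-box variant, in 4.68% of all windows, was found in 3 of the 13, at Cry1, Cry2 and Nr1d1. The RORE core, in 2.61% of all windows, was found in 1 of the 13, at +30 of an Arntl start. The half-site of the cAMP response element was found at Cry1, Cry2 and Per1, in 4 of the 13 windows, against 20.8% of all windows. The full element was found at none of the 9 genes (1.79% of all windows). No motif of this set lay in the windows of Dbp, Clock or Nr1d2. These are matches of letters in a short window and show neither binding nor its absence.

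All 10 transcripts were present at low to moderate levels. Within shNT the order by TPM, which is per length, ran Nr1d2, Clock, Cry1, Nr1d1, Arntl, Cry2, Per2, Per1, Dbp and Per3. Neighbours in that order did not overlap between the shNT libraries, except Nr1d1 and Arntl. Nr1d2, Clock and Cry1 held the top 3 places, in that order, in each group mean, and Per3 was last in each. Dbp changed place most: it ranked 9 in shNT and with hairpin 2, and 4 with hairpin 1, where its libraries overlapped those of Arntl. Averaged over the 6 libraries, Nr1d2 stood above 46.8% of tested genes, Clock above 37.5%, Dbp above 19.8% and Per3 above 4.37%. Per3 was under 1 TPM in both hairpin 2 libraries.

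**Figure D1:**
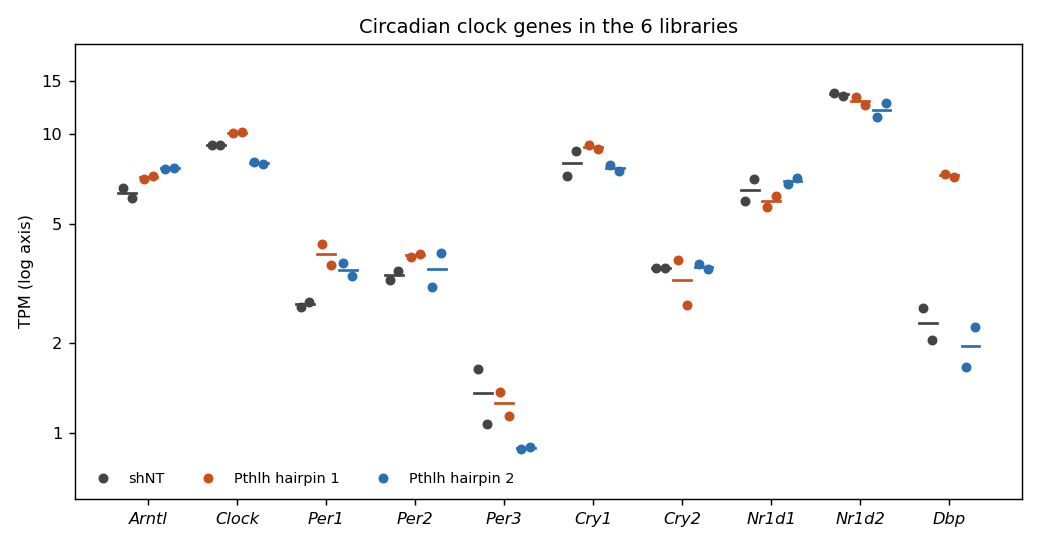
TPM of each of the 10 clock genes (log axis) in the 6 libraries; points are libraries, short lines are group means, and colours mark shNT, hairpin 1 and hairpin 2. Dbp with hairpin 1 lies at 7.16 and 7.36 TPM, above its 4 other libraries at 1.66 to 2.62 TPM.

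Dbp (chromosome 7, 45705088 to 45710203, plus strand, mm10), the D-box activator and a direct E-box target of CLOCK and BMAL1, was at 2.62 and 2.04 TPM in shNT, 7.36 and 7.16 with hairpin 1, and 1.66 and 2.25 with hairpin 2. Hairpin 1 libraries were high and apart from the rest, while hairpin 2 and shNT libraries overlapped. Means were 2.33 ± 0.407, 7.26 ± 0.144 and 1.96 ± 0.419 TPM (SD, n = 2 each). On the log2(TPM + 1) scale, which understates changes of genes at such levels, Dbp rose by 1.32 ± 0.13 (SE; 95% interval 0.98 to 1.65; limma adjusted p = 0.00112) with hairpin 1. With hairpin 2 the difference was -0.17 (limma adjusted p = 0.406). The test of one hairpin against the other gave -1.49 ± 0.13 for hairpin 2 minus hairpin 1 (95% interval -1.83 to -1.15; limma adjusted p = 0.00109). Each library is bulk RNA, so more transcript in every cell and more cells with the transcript cannot be told apart.

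Both of these Dbp calls held in 16 of 16 alternative analyses, with each library left out in turn among them. The average over both hairpins, 0.57 ± 0.12 (limma adjusted p = 0.0152), describes neither hairpin. It was no longer past the threshold without hairpin 1 replicate 1 (limma adjusted p = 0.0550) or replicate 2 (0.0511). It also missed the threshold after centring each chromosome (0.40, limma adjusted p = 0.0586). Exons of Dbp share 539 bases with Sphk2, a sphingosine kinase on the opposite strand, and the sources used here do not say whether counting used strand. Sphk2 was at 8.60 and 7.92 TPM in shNT, 11.8 and 12.6 with hairpin 1, and 10.4 and 10.2 with hairpin 2. Its difference was 0.51 with hairpin 1 and 0.29 with hairpin 2 (limma adjusted p = 0.00207 for the first and 0.0493 for the second); its part in the Dbp values was not tested.

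Of the activators, Arntl (chromosome 7, 113207465 to 113314126, plus strand) encodes BMAL1. It was at 6.61 and 6.10 TPM in shNT, 7.08 and 7.22 with hairpin 1, and 7.63 and 7.71 with hairpin 2. All 4 hairpin libraries lay above both shNT libraries. Means were 6.35 ± 0.363, 7.15 ± 0.0995 and 7.67 ± 0.0563 TPM (SD, n = 2 each), and over both hairpins Arntl rose by 0.19 ± 0.05 (log2, SE; limma adjusted p = 0.0373). Neither hairpin passed alone, at 0.15 for hairpin 1 (limma adjusted p = 0.0960) and 0.24 for hairpin 2 (limma adjusted p = 0.0686). The median gene lay at 0.10 in the same comparison. The Arntl difference was 0.11 after median-ratio scaling (limma adjusted p = 0.202), 0.06 without small-RNA entries (0.735) and 0.02 after chromosome centring (0.796). The call was also missed without shNT replicate 2 (limma adjusted p = 0.140), without either replicate of hairpin 1 (0.0877 and 0.0988 for replicates 1 and 2) and without either of hairpin 2 (0.0933 and 0.103). With hairpin 1 the difference changed sign without small-RNA entries (-0.01) and after chromosome centring (-0.05). On chromosome 7, which holds Arntl and Dbp, the median gene was at 0.22 with hairpin 1.

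Clock (chromosome 5, 76209868 to 76304792, minus strand) encodes the partner of BMAL1. It was at 9.21 and 9.17 TPM in shNT, 10.07 and 10.14 with hairpin 1, and 8.03 and 7.95 with hairpin 2. Replicates lay close together, and the groups did not overlap: hairpin 1 was highest and hairpin 2 lowest. Means were 9.19 ± 0.0326, 10.1 ± 0.0501 and 7.99 ± 0.0591 TPM (SD, n = 2 each). The difference between the hairpins was -0.31 ± 0.05 for hairpin 2 minus hairpin 1 (log2, SE; 95% interval -0.43 to -0.18; limma adjusted p = 0.00667), and the call held in 16 of 17 alternatives. It missed the threshold without small-RNA entries (-0.27, limma adjusted p = 0.0914). Against shNT neither hairpin passed: the difference was 0.12 with hairpin 1 and -0.18 with hairpin 2 (limma adjusted p = 0.0874 for the first and 0.0770 for the second). After median-ratio scaling, Clock with hairpin 2 was at -0.27 (limma adjusted p = 0.0446), while with hairpin 1 it went to 0.03, and to -0.04 without small-RNA entries. Where Clock stands relative to shNT thus moves with the scaling, and its order between the hairpins does not.

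The Period genes encode repressors of the loop. Per1 (chromosome 11, 69095217 to 69109960, plus strand), also an early target of cAMP and glucocorticoid signals, was at 2.63 and 2.75 TPM in shNT, 4.27 and 3.63 with hairpin 1, and 3.69 and 3.34 with hairpin 2. All hairpin libraries were above both shNT libraries, and the hairpins overlapped. Means were 2.69 ± 0.0820, 3.95 ± 0.455 and 3.52 ± 0.243 TPM (SD, n = 2 each). With hairpin 1 Per1 rose by 0.42 ± 0.10 (log2, SE; limma adjusted p = 0.0154). With hairpin 2 its level was 1.31 times that of shNT, and the difference of 0.29 (95% interval 0.05 to 0.53) missed the threshold (limma adjusted p = 0.107). Hairpin 2 minus hairpin 1 was -0.13 for Per1 (95% interval -0.37 to 0.11), which missed the threshold (limma adjusted p = 0.332).

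Over both hairpins Per1 rose by 0.36 ± 0.08 (limma adjusted p = 0.0224), and the difference was positive in all 16 alternatives, between 0.20 and 0.45. Its calls were less firm than its direction: that for both hairpins held in 8 of the 16. It was missed without the filter, without small-RNA entries, after chromosome centring and with the hairpins pooled as 1 group. Without hairpin 1 replicate 1 the limma adjusted p was 0.0776 for hairpin 1 and 0.0572 for both hairpins. For both hairpins it was 0.0501 and 0.0672 without replicates 2 and 1 of hairpin 2, and 0.0794 without shNT replicate 1. Without small-RNA entries the Per1 difference with hairpin 1 was 0.30 (limma adjusted p = 0.105), and after chromosome centring 0.25 (limma adjusted p = 0.0888).

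Per2 (chromosome 1, 91415982 to 91459324, minus strand) was at 3.24 and 3.49 TPM in shNT, 3.88 and 3.96 with hairpin 1, and 3.06 and 3.99 with hairpin 2. Its hairpin 2 libraries spanned both other groups. Its differences were 0.17 with hairpin 1 and 0.05 with hairpin 2 (limma adjusted p = 0.252 for the first and 0.809 for the second), the latter turning to -0.01 after chromosome centring. Per3 (chromosome 4, 151003652 to 151044665, minus strand), the D-box bearing member shown above, was at 1.64 and 1.07 TPM in shNT, 1.37 and 1.14 with hairpin 1, and 0.878 and 0.892 with hairpin 2. Both hairpin 2 libraries were lower than every other library. The difference with hairpin 2, -0.31 (95% interval -0.69 to 0.07), missed the threshold (limma adjusted p = 0.219), and that with hairpin 1 was -0.05 (limma adjusted p = 0.789).

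The cryptochromes are the stronger repressors of CLOCK and BMAL1. Cry1 (chromosome 10, 85131700 to 85185064, minus strand) was at 7.23 and 8.77 TPM in shNT, 9.15 and 8.92 with hairpin 1, and 7.87 and 7.51 with hairpin 2. Its shNT libraries were the most spread, and they enclosed both hairpin 2 libraries. Differences were 0.16 with hairpin 1 and -0.05 with hairpin 2 (limma adjusted p = 0.191 for the first and 0.764 for the second). The first was 0.07 after median-ratio scaling and turned to -0.03 after chromosome centring. Hairpin 2 minus hairpin 1 was -0.21 for Cry1 (95% interval -0.44 to 0.02; limma adjusted p = 0.129).

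Cry2 (chromosome 2, 92403646 to 92434043, minus strand) was at 3.54 and 3.56 TPM in shNT, 3.79 and 2.68 with hairpin 1, and 3.66 and 3.52 with hairpin 2. Its lowest library was hairpin 1 replicate 2, and the other 5 lay close together. Differences were -0.12 with hairpin 1 and 0.01 with hairpin 2 (limma adjusted p = 0.498 for the first and 0.963 for the second). The median gene of chromosome 2 was at -0.27 with hairpin 1, which is -0.37 relative to all genes. After chromosome centring Cry2 turned to 0.16 with hairpin 1 (limma adjusted p = 0.367).

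The REV-ERB genes form the second loop. Nr1d1 (chromosome 11, 98767932 to 98775333, minus strand) was at 5.96 and 7.05 TPM in shNT, 5.71 and 6.21 with hairpin 1, and 6.80 and 7.09 with hairpin 2. Its shNT libraries overlapped each hairpin, and the hairpins, with hairpin 1 lower, did not overlap. Differences were -0.11 with hairpin 1 and 0.09 with hairpin 2 (limma adjusted p = 0.366 for the first and 0.544 for the second). After chromosome centring Nr1d1 was at -0.28 with hairpin 1 (limma adjusted p = 0.0497) and turned to -0.05 with hairpin 2. Nr1d1 shares 263 exonic bases with Thra, the thyroid hormone receptor on the opposite strand. Thra was at 17.2 and 18.3 TPM in shNT, 35.9 and 35.5 with hairpin 1, and 23.4 and 25.03 with hairpin 2, a different pattern from that of Nr1d1; whether Thra reads enter the Nr1d1 values was not tested.

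Nr1d2 (chromosome 14, 18204054 to 18239127, minus strand), the most abundant of the 10 per length, was at 13.7 and 13.4 TPM in shNT, 13.3 and 12.5 with hairpin 1, and 11.4 and 12.7 with hairpin 2. All 4 hairpin libraries were below both shNT libraries. The difference over both hairpins was -0.11 (95% interval -0.26 to 0.03) and missed the threshold (limma adjusted p = 0.176). It passed at -0.21 both after median-ratio scaling and after chromosome centring (limma adjusted p = 0.0375 for the first and 0.0399 for the second).

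**Figure D2:**
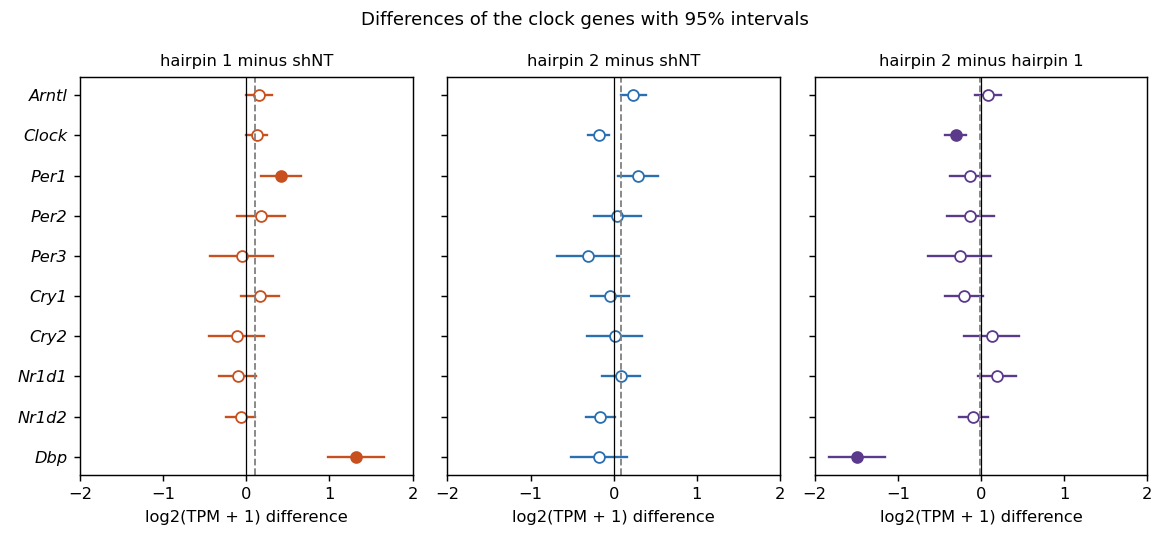
Difference of each clock gene on the log2(TPM + 1) scale with its 95% interval, 1 panel per comparison; the dashed grey line is the median of all tested genes. Dbp lies at 1.32 with hairpin 1 and at -1.49 for hairpin 2 minus hairpin 1, while most other genes lie near the dashed line.

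Counted over the 10 genes, 2 rose with hairpin 1 (Dbp and Per1) and 0 fell, where 50.2% of all tested genes passed by limma (32.1% higher and 18.1% lower). The median difference of the 10 was 0.14, against 0.11 for all tested genes. The libraries did not overlap for 7 of the 10, against 76.8% of all tested genes. With hairpin 2 limma called 0 of the 10, against 9.63% of all tested genes (6.62% higher and 3% lower). For 5 of the 10 the hairpin 2 and shNT libraries did not overlap, against 61.8% of all tested genes. The median with hairpin 2 was -0.02, against 0.09. These comparisons use the same shNT libraries.

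Over both hairpins 3 of the 10 rose (Arntl, Dbp and Per1) and 0 fell, where limma called 39.4% of all tested genes, 27.3% higher and 12.1% lower. After median-ratio scaling 2 rose (Dbp and Per1) and 1 fell (Nr1d2), where 1742 of all tested genes were higher and 2155 lower. After chromosome centring 0 rose and 2 fell (Clock and Nr1d2), where 1405 of all tested genes were higher and 1592 lower. The direction of this count thus moved with the scaling. The 4 hairpin libraries did not overlap shNT for 3 of the 10, against 40.7% of all tested genes. With the hairpins pooled as 1 group, so that their difference entered the spread, limma called 0 of the 10, and 1 gene of all tested. Leaving out 1 library left 0 to 2 of the 10 past the threshold: 0 without hairpin 1 replicate 1, 1 without each of the other hairpin libraries and 2 without either shNT library. Between the hairpins 2 of the 10 passed (Clock and Dbp), both lower with hairpin 2, where 40.1% of all tested genes passed (19.9% higher and 20.2% lower); libraries did not overlap for 6 of the 10, against 77%. Among all tested genes the calls between the hairpins became 2374 to 2525, from 4626, when 1 hairpin library was left out, and those of hairpin 1 against shNT 3749 and 3765, from 5798, without replicates 1 and 2 of hairpin 1. With counts this small no difference in share between the clock genes and all genes is read from them.

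**Figure D3:**
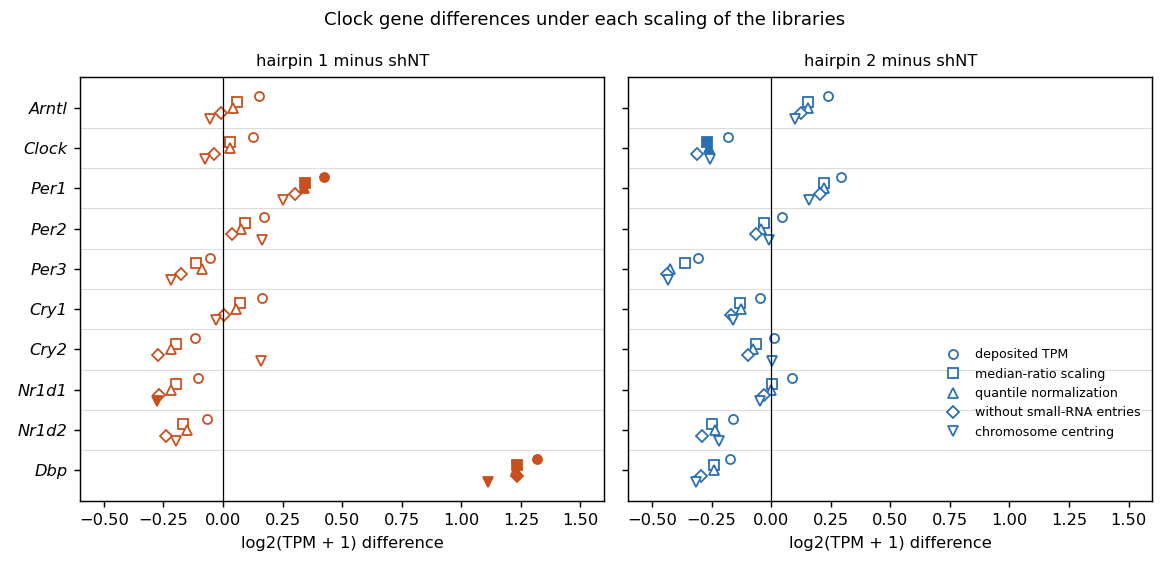
Difference of each clock gene from shNT on the log2(TPM + 1) scale under 5 treatments of the libraries, for hairpin 1 (left) and hairpin 2 (right); filled symbols have a limma adjusted p under 0.05. Dbp with hairpin 1 stays between 1.11 and 1.32 in every treatment, while Arntl, Clock and Cry1 with hairpin 1 lie on both sides of 0.

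The relatives and opponents of DBP were examined next. Nfil3, the repressor at D-boxes, was at 14.6 and 14.5 TPM in shNT, 7.02 and 7.11 with hairpin 1, and 10.7 and 11.3 with hairpin 2. Groups were well apart, with shNT highest and hairpin 1 lowest. Nfil3 fell by 0.95 (log2; limma adjusted p = 0.000205) with hairpin 1, in all 17 alternatives. It fell by 0.38 (limma adjusted p = 0.0235) with hairpin 2, and the hairpins differed by 0.57 (limma adjusted p = 0.00118). The hairpin 2 call for Nfil3 was missed without either replicate of hairpin 2 (limma adjusted p = 0.161 and 0.133 for replicates 1 and 2) and without either of hairpin 1 (0.0712 and 0.0710). With the replicate number as a block it was 0.0518, and in a fit of only these groups 0.0720.

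Tef, a D-box activator like Dbp, was at 14.7 and 13.9 TPM in shNT, 14.9 and 14.7 with hairpin 1, and 12.2 and 11.98 with hairpin 2. Its hairpin 2 libraries were the lowest, and those of shNT and hairpin 1 lay close. Tef differed between the hairpins by -0.27 (limma adjusted p = 0.009998), while hairpin 1 was at 0.04 against shNT (limma adjusted p = 0.510). The Tef call between the hairpins was missed without either replicate of hairpin 1 (limma adjusted p = 0.0640 and 0.0560 for replicates 1 and 2), without either of hairpin 2 (0.0567 and 0.0664) and without the small-RNA entries (0.145). Against shNT, Tef with hairpin 2 was just past the threshold (-0.23, limma adjusted p = 0.0494). That call was missed in 10 of 17 alternatives, among them those without replicates 1 and 2 of hairpin 2 (0.197 and 0.2275), without either replicate of hairpin 1 (0.113 for each) and without shNT replicate 1 (0.0981). Hlf, the last member of that family, was at 0.0673 TPM or less in every library and listed at 0 with hairpin 2, so it was not tested.

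The ratio of Dbp to Nfil3 TPM, chosen after their values were seen, sets activator against repressor of the same sequence. It was 0.179 and 0.141 in shNT, 1.049 and 1.007 with hairpin 1, and 0.1556 and 0.2001 with hairpin 2. Only the hairpin 1 libraries held as much Dbp as Nfil3 transcript per length. The ratio of Tef to Nfil3 was 0.965 and 1.00 in shNT, 2.06 and 2.12 with hairpin 1, and 1.06 and 1.14 with hairpin 2. Per3, whose window holds 2 D-boxes, was at 1.37 and 1.14 TPM with hairpin 1, inside the range of the shNT libraries. Its level is low, above 4.37% of tested genes, and whether genes with D-boxes follow these ratios was not tested.

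**Figure D4:**
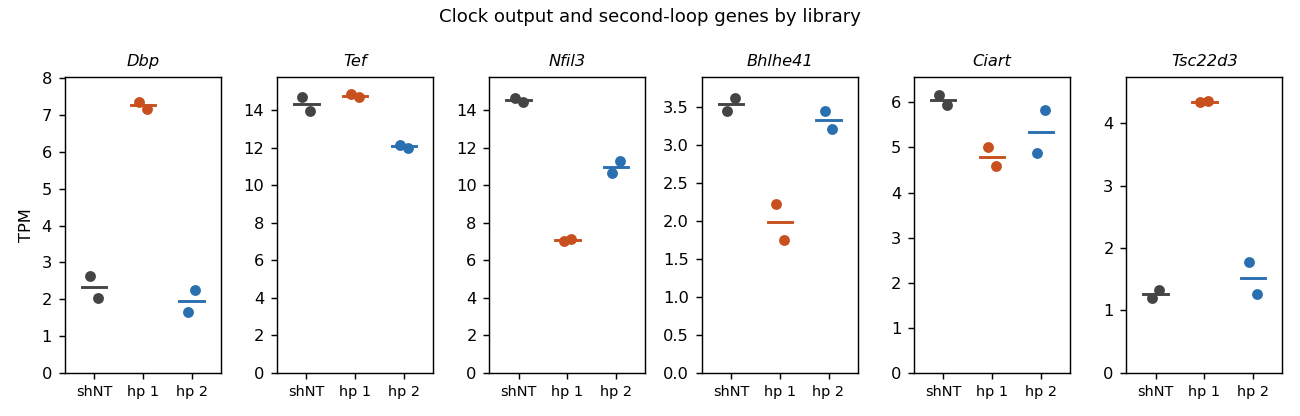
TPM (linear axes from 0) of Dbp, Tef, Nfil3, Bhlhe41, Ciart and Tsc22d3 by library; points are libraries and lines are means of shNT, hairpin 1 (hp 1) and hairpin 2 (hp 2). With hairpin 1, Dbp and Tsc22d3 are high and Nfil3 and Bhlhe41 low relative to both other groups.

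Further repressors of CLOCK and BMAL1 were split. Bhlhe41 (DEC2), which competes for E-boxes, was at 3.45 and 3.61 TPM in shNT, 2.22 and 1.75 with hairpin 1, and 3.45 and 3.203 with hairpin 2. Only hairpin 1 stood apart: Bhlhe41 fell by 0.61 (log2; limma adjusted p = 0.00584) with hairpin 1, in 16 of 16 alternatives, and was at -0.07 (limma adjusted p = 0.691) with hairpin 2. The hairpins differed by 0.54 (limma adjusted p = 0.0114). That difference for Bhlhe41 was missed without hairpin 1 replicate 2 (limma adjusted p = 0.0525) or hairpin 2 replicate 1 (0.0702). Its close relative Bhlhe40 was at 24.5 to 29.4 TPM with no call in any comparison.

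Ciart (CHRONO), whose window holds 3 E-boxes, was at 6.17 and 5.95 TPM in shNT, 5.01 and 4.58 with hairpin 1, and 4.88 and 5.82 with hairpin 2. All 4 hairpin libraries were below shNT. The hairpin 1 difference of -0.29 was just past the threshold (limma adjusted p = 0.0488), and it was missed without shNT replicate 1 (limma adjusted p = 0.131), without shNT replicate 2 (0.0851), or without replicate 1 or 2 of hairpin 1 (0.0959 and 0.1999). The Ciart call was also missed with the replicate number as a block (limma adjusted p = 0.0765) and without the filter (0.102). Of the alternative activators, Arntl2 was at 1.11 to 1.55 TPM (0.19 over both hairpins, limma adjusted p = 0.138). Npas2, a stand-in for CLOCK, was at 0.292 and 0.277 TPM in shNT, 0.686 and 0.619 with hairpin 1, and 0.429 and 0.492 with hairpin 2, under the filter and not tested. Rora and Rorb, receptors that oppose the REV-ERBs, were each under 1 TPM in all libraries.

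Beyond the 10 genes, a list of further clock-related genes held 74 in the table, of which 63 were tested. With hairpin 1, 15 of the 63 rose and 17 fell, which is 50.8%, against 50.2% of all tested genes. The count was 10 higher and 20 lower after median-ratio scaling, and 4 and 20 without small-RNA entries. Among all tested genes these settings gave 2623 and 2802 for the first, and 1711 and 2824 for the second. With hairpin 2 limma called 4 higher and 4 lower, 12.7% against 9.63%. That count moved when 1 library was left out, and so did the count among all tested genes. The shares of 50.8% and 12.7% both lay near those of all tested genes.

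Enzymes that act on clock proteins were counted too. Of 19 tested kinases, phosphatases and ubiquitin ligases 6 rose and 3 fell with hairpin 1, where 32.1% of all tested genes were higher and 18.1% lower. After median-ratio scaling 2 rose and 5 fell, where 2623 of all tested genes were higher and 2802 lower. Fewer of the 19 rose when either replicate of hairpin 1 was left out, and so did fewer of all tested genes. Csnk1e, casein kinase 1 epsilon, which phosphorylates PER, was at 54.3 and 51.4 TPM in shNT, 38.5 and 41.3 with hairpin 1, and 57.6 and 54.1 with hairpin 2. It fell by 0.40 (log2; limma adjusted p = 0.00367) with hairpin 1. Csnk2a1, a casein kinase 2 subunit, fell by 0.46 (limma adjusted p = 0.00125), and Ppp1cc, a protein phosphatase 1 subunit, rose by 0.42 (limma adjusted p = 0.00188). Each of these 3 calls held in 17 of 17 alternatives, but after chromosome centring the hairpin 1 difference was -0.18 for Csnk2a1 and 0.22 for Ppp1cc. Hairpin 2 minus hairpin 1 passed for all 3, at 0.47 for Csnk1e, 0.40 for Csnk2a1 and -0.39 for Ppp1cc. The Csnk2a1 difference between the hairpins was 0.12 after chromosome centring and missed the threshold (limma adjusted p = 0.1045).

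Among 18 tested chromatin cofactors of the clock 2 rose and 5 fell with hairpin 1, where 32.1% of all tested genes were higher and 18.1% lower. After median-ratio scaling 1 rose and 6 fell, and without small-RNA entries 0 rose and 6 fell. The corresponding values for all tested genes were 2623 and 2802 in the first case, and 1711 and 2824 in the second. Crebbp, the acetyltransferase CBP, was at 13.8 and 13.0 TPM in shNT, 8.85 and 8.28 with hairpin 1, and 13.5 and 12.5 with hairpin 2. It fell by 0.59 (log2; limma adjusted p = 0.00150) with hairpin 1, as did Mta2, a subunit of the NuRD complex, by 0.40 (limma adjusted p = 0.00116). Both calls held in 17 of 17 alternatives; Crebbp was at -0.37 after chromosome centring. Timeless, a replication fork protein that also binds clock proteins, rose by 0.42 (limma adjusted p = 0.00198) with hairpin 1, a call missed without small-RNA entries (limma adjusted p = 0.0968); its difference was 0.23 after chromosome centring. With hairpin 2 Timeless was also past the threshold (0.30, limma adjusted p = 0.0311). The hairpin 2 call for Timeless held in only 6 of 17 alternatives. Among those that missed it were median-ratio scaling (limma adjusted p = 0.0829), no filter, no small-RNA entries and chromosome centring. It was also missed without any 1 of the 4 hairpin libraries.

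Of 16 tested genes that cycle in many tissues 6 rose and 4 fell with hairpin 1. The shares over all tested genes were 32.1% for a rise and 18.1% for a fall. With the small-RNA entries left out, 2 of the 16 rose and 4 fell. In that setting 1711 of all 11615 tested genes rose and 2824 fell. Tsc22d3, or GILZ, both rhythmic and a glucocorticoid target, was at 1.202 and 1.33 TPM in shNT, 4.34 and 4.36 with hairpin 1, and 1.78 and 1.26 with hairpin 2. Like Dbp it was high in the hairpin 1 libraries and overlapped shNT with hairpin 2. It rose by 1.24 (log2; limma adjusted p = 0.00105) with hairpin 1, against 0.15 (limma adjusted p = 0.444) with hairpin 2. Cirbp, a cold-induced RNA-binding protein, was at 8.30 and 9.85 TPM in shNT, 16.8 and 17.5 with hairpin 1, and 15.9 and 12.9 with hairpin 2. It rose by 0.85 (limma adjusted p = 0.00285) with hairpin 1. Cirbp also passed with hairpin 2 (0.61, limma adjusted p = 0.0387), but in only 5 of 17 alternatives. Among those that missed it were median-ratio scaling (limma adjusted p = 0.0645), no filter and chromosome centring. It was also missed without shNT replicate 1 and without any 1 of the 4 hairpin libraries. Tspan4, a tetraspanin, fell by 0.33 (limma adjusted p = 0.00185) with hairpin 1.

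Glucocorticoids reset clocks and act on Per1, so 7 tested genes listed as targets of their receptor were counted apart, among them Nr3c1, the gene of the receptor itself. With hairpin 1, 2 rose and 3 fell, where 32.1% of all tested genes were higher and 18.1% lower. Fkbp5, a co-chaperone of that receptor, was at 48.7 and 48.3 TPM in shNT, 67.5 and 66.0 with hairpin 1, and 54.4 and 54.7 with hairpin 2. Fkbp5 rose by 0.45 (log2; limma adjusted p = 0.000655). Dusp1, a phosphatase of MAP kinases, was at 11.3 and 12.7 TPM in shNT, 6.88 and 6.02 with hairpin 1, and 14.2 and 14.3 with hairpin 2. It fell by 0.81 (limma adjusted p = 0.00110) with hairpin 1, and Errfi1, a feedback inhibitor of the EGF receptor, fell by 0.41 (limma adjusted p = 0.00461). Errfi1 also passed with hairpin 2 (-0.37, limma adjusted p = 0.0324), but in only 9 of 17 alternatives. That call was missed without the filter, with a replicate block and in a fit of only these groups. It was also missed without shNT replicate 1 and without any 1 of the 4 hairpin libraries. Whether the activity of the receptor differed between the groups was not tested.

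**Figure D5:**
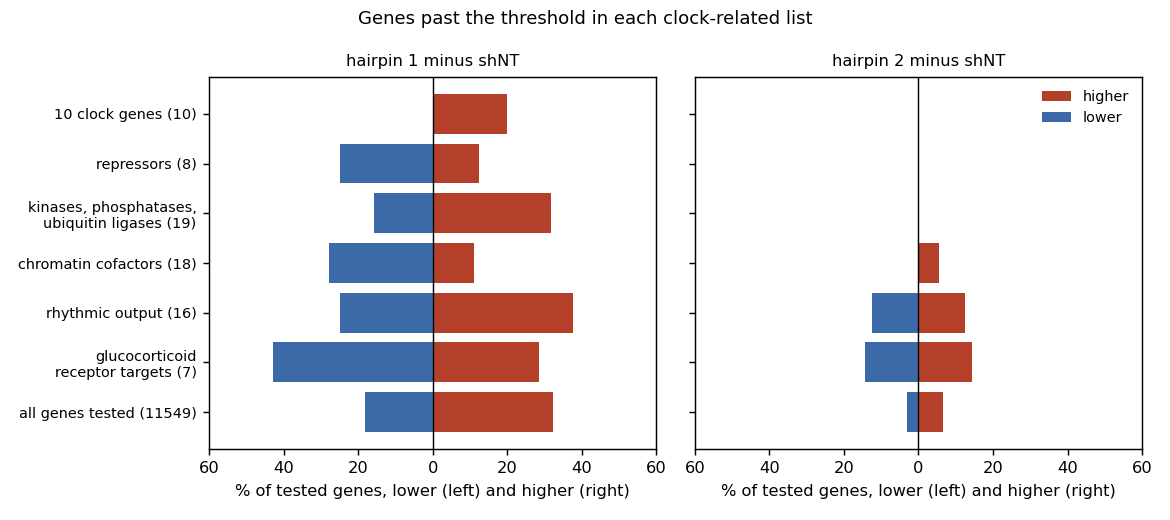
Percent of tested genes past a limma adjusted p of 0.05 in each clock-related list (number tested in brackets) and among all genes, for hairpin 1 (left) and hairpin 2 (right); bars to the right are higher and to the left lower than shNT. Among all genes 32.1% were higher and 18.1% lower with hairpin 1; the repressor list contains the Per and Cry genes.

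The genes most like the 3 clock genes with the widest range of group means were found by Pearson correlation of log2(TPM + 1) over the 6 libraries, which share groups, so r is a description only. For Dbp they were Cln6 (r = 0.998), Itfg1 (r = 0.998) and Hip1r (r = 0.996). Cln6 was at 6.14 and 5.56 TPM in shNT, 12.8 and 12.1 with hairpin 1, and 4.76 and 6.01 with hairpin 2. For Per1 they were Coq10a (r = 0.985), Nipsnap3b (r = 0.979) and Mut (r = 0.978). For Per3 they were Osbpl10 (r = 0.875), Lifr (r = 0.864) and Rbm43 (r = 0.863), each lower with hairpin 2 than in the other groups.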

How the data were processed

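RNA sequencing libraries were compared as 3 groups of 2, taken with their replicate numbers from the sample titles. The authors deposited TPM per gene, and per the submitters' processing notes Salmon, R 3.5, DESeq2 and the mm10 build were used; the version of Salmon, the role of DESeq2 and the strandedness are not given in the sources used here. TPM sums to 1000000 per library, so a very abundant entry lowers all others. Values were used as deposited. Genes that reached 1 TPM in 2 or more libraries were fitted as log2(TPM + 1), 3 group means over 6 libraries, with limma 3.58.1 in R 4.3.3, a variance prior that followed mean expression, Benjamini-Hochberg adjustment over all 11549 genes and a threshold of 0.05. Knockdown was the mean of both hairpin means minus shNT. The model was tested on simulated data.

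The clock genes and all lists were chosen with earlier results of these data known. Named genes were Pthlh, the 10 clock genes, of each further clock list the 4 with the smallest limma p in any comparison and those below the filter, and, for each of the 3 clock genes of widest range, the 3 most correlated genes among those whose own group means span at least 0.5 on the log2 scale. Not every gene this rule names is reported here. Sphk2 and Thra were added as overlapping neighbours and Mir6236 as the most abundant entry. Gene positions are those of GENCODE M21 (mm10), and promoter windows those of RefSeq. Alternatives covered the pseudocount, the filter, scaling, small-RNA entries, chromosome centring, the variance prior, a replicate block, the samples fitted and each library left out.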

Additional observations from a re-analysis of the deposited data

Results flagged for a closer look

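The effects of the hairpins differed in 2 of the 10 clock genes, since hairpin 2 minus hairpin 1 passed its own limma test: Clock (-0.31) and Dbp (-1.49), on the log2 scale. Of the 63 other clock-related genes tested, 27 (42.9%) passed the same test, against 40.1% of all tested genes. The 15 named here were picked partly by their p in this comparison, so their number says nothing further. Among transcription factors these were Nfil3 (0.57), Bhlhe41 (0.54) and Tef (-0.27). Among enzymes that act on clock proteins they were Csnk1e (0.47), Csnk2a1 (0.40), Ppp1cc (-0.39) and Gsk3a (-0.18), and among cofactors Crebbp (0.55), Wdr5 (0.51) and Mta2 (0.41). Among rhythmic genes and glucocorticoid targets they were Dusp1 (1.03), Tspan4 (0.44), Fkbp5 (-0.29), Por (-0.33) and Tsc22d3 (-1.09). The Gsk3a difference passed in 11 of 17 alternatives and was missed without any 1 of the 4 hairpin libraries (limma adjusted p = 0.0807 to 0.139), and the Por difference passed in 13 of 17. After chromosome centring Csnk2a1 was at 0.12 (limma adjusted p = 0.1045), Wdr5 at 0.22 and Crebbp at 0.27, the latter both still past the threshold. No group had the 4 libraries needed to look for a single outlying library.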

How the results depend on the processing

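No result past its threshold changed sign; differences that were not called, such as those of Arntl, Cry1 and Cry2 with hairpin 1 and of Nr1d1 with hairpin 2, did. Over single clock genes and comparisons, 584 values under alternatives kept direction and call, 37 moved, 11 newly passed and 28 no longer passed; for the other clock-related genes these were 1170, 30, 20 and 128. Of the 10 clock genes limma called 3 for both hairpins together, where it called 4550 of all 11549 tested genes. The 3 became 1 without the filter, where 3872 of 18323 genes were called. It was also 1 with a mean TPM of at least 5 (5 of the 10 were tested), where 3886 of 8706 were called. Without small-RNA entries it was 1, where 2918 of 11615 were called. With the hairpins pooled as 1 group it was 0, against 1 of all tested genes. There Arntl and Per1 had an unadjusted limma p under 0.05 (0.0468 and 0.0167). The count of clock genes was lower without any 1 library. For hairpin 1 the count of 2 became 0 at a mean TPM of at least 5 and 1 without small-RNA entries. It also moved with single libraries left out. After chromosome centring it stayed at 2, but the 2 were Dbp, higher, and Nr1d1, lower. For hairpin 2 the count of 0 became 1 after median-ratio scaling and 1 after quantile normalization, and stayed at 0 to 0 without any 1 library. Between the hairpins 2 became 1 at a mean TPM of at least 5 and 1 without small-RNA entries, with 2 to 3 without 1 library. Dbp and Per1 lie below a mean TPM of 5 and were not tested there.

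With a replicate block 2 of the 10 passed for both hairpins together (Arntl was missed, limma adjusted p = 0.0595), and hairpin 2 had 276 calls among all genes in place of 1112; 98 were called in a fit of the compared groups alone, and 6 and 9 without a hairpin 2 library. Replicate numbers were shared between groups, and the sample titles do not say whether they pair the libraries. Over all tested genes, deviations of same-numbered libraries correlated at 0.02, 0.02 and -0.04. These values show no pairing over the genes as a whole. They cannot exclude one that acts on few genes. Pthlh stayed at -0.76 with the hairpins pooled (limma adjusted p = 0.0980) and ranged from -0.84 to -0.67 without 1 library. At a mean TPM of at least 5 Pthlh dropped out, and for both hairpins together a fit of only the groups compared is the fit already given. Without depth, counting error at the low TPM of Per3 and Dbp cannot be given.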
